A study of Mus musculus with 6 samples.

Results

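The genes described here build, fold, check and ship the proteins that enter the endoplasmic reticulum (ER), and they include the sensors that read protein folding stress there. They were taken by gene symbol from a list of 54 genes, and all 54 matched 1 row each of the deposited table of 22475 genes. The list was divided by function into 14 genes of the translocon and signal sequence processing, 7 of N-glycosylation, 15 chaperones and disulfide isomerases, 7 of ER-associated degradation, 7 stress sensors and their effectors, and 4 of ER export and retrieval. The rule names genes by symbol and sets no threshold on expression.

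RNA was measured by sequencing in Lin-, Sca1+, cKit+ cells sorted from mouse bone marrow, a population that holds haematopoietic stem and multipotent progenitor cells. All mice were homozygous for the FLT3-ITD mutation, an internal tandem duplication that leaves the receptor tyrosine kinase FLT3 active without its ligand. The controls (FLT3-ITD) carried wild type miR-155, and the other group (FLT3-ITD miR-155-/-, called KO from here on) lacked this microRNA. There were 3 libraries per group, each from the pooled RNA of 3 mice, so a p-value measures the spread between pools, and no group without FLT3-ITD was analysed here. The labels name no strain, age or sex. The comparison asks which transcripts differ when miR-155 is missing from FLT3-ITD progenitors.

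Proteins bound for secretion or for membranes are threaded into the ER through the SEC61 channel, lose their signal peptide, receive N-linked glycans and are folded with the help of chaperones and disulfide isomerases. Proteins that fail to fold are moved back to the cytosol and degraded. When unfolded protein builds up, the sensors IRE1, ATF6 and PERK start the unfolded protein response, in which IRE1 splices Xbp1 mRNA, ATF6 is cut free to act as a transcription factor and PERK slows translation while favouring that of ATF4. Haematopoietic stem cells are known for low protein synthesis and for sensitivity to this stress, whereas plasma cells, which secrete antibody, have the most extensive ER of the blood lineages.

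Library totals lay between 6843129 and 9443615 counts, of which the 54 genes took 1.24% to 1.57%. Levels between libraries are given as CPM, the count scaled to a common library size after TMM adjustment. By counting error alone, a transcript with 0 counts could have had an expected count of up to 3, or 0.325 to 0.459 CPM. The miR-155 host transcript Mir155hg had 33, 48 and 36 counts in control libraries 1, 2 and 3 and 4, 14 and 4 in the KO libraries, lower in each of them. The short Mir155 row itself had 2, 1 and 0 counts in the controls and 0 in each KO library, so it could not check the labels. The sort markers Kit, Ly6a (the Sca1 antigen) and Flt3 were present in all 6 libraries, at 241 to 386, 105 to 127 and 204 to 287 CPM. Markers of mature cells were present too, although the sort gate selects against lineage markers. Plasma cell markers (11 of 11 above 0) summed to 16874, 11581 and 16515 CPM in the controls and to 3131, 1630 and 5397 CPM in the KO, most of it immunoglobulin, with every KO library below every control. Macrophage markers (9 of 9 above 0) summed to 743, 67.6 and 104 CPM in the controls and to 523, 97.3 and 158 CPM in the KO, so library 1 of each group held the most. Neutrophil markers summed to 761, 614 and 653 CPM in the controls and to 368, 531 and 341 CPM in the KO, again without overlap. Mast cell, basophil and eosinophil markers summed to 82.7, 104 and 112 CPM against 40.1, 44.1 and 63.0 CPM. Of these only Prg2, 1 of 5 tested, was itself without overlap (51.8, 69.2 and 74.9 against 21.3, 13.2 and 25.7 CPM). Cpa3 and Mcpt8 had log2 fold changes (KO over control) of -0.10 and -0.13. B cell markers summed to 72.1, 45.3 and 65.1 CPM in the controls and to 50.3, 34.3 and 49.2 CPM in the KO, with overlap. Cd79b was the highest of them, at 22.8 to 43.1 CPM, whereas Pax5, Cr2 and Fcer2a had at most 3 counts in any library. Of the 4 B cell markers tested, 1 was lower in the KO without overlap, Cd79a. T cell markers summed to 71.2, 40.4 and 52.1 CPM in the controls and to 51.7, 31.1 and 33.3 CPM in the KO, with overlap. Of the 7 T cell markers tested, 2 were lower in the KO without overlap, Cd28 and Ctla4. Log2 fold changes of the 7 ran from -1.56 (Ctla4) to 0.69 (Cd8a). In such bulk samples, fewer cells of a type and less RNA per cell cannot be told apart.

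Most ER genes had nearly the same level in both groups. All 54 genes passed the filter on low counts, and in edgeR's quasi-likelihood test across 13217 genes none of the 54 fell and none rose at an adjusted p under 0.05, where 0.144% of all genes tested fell. Without adjustment 2 of the 54 had an edgeR p under 0.05, Creld2 and Sel1l, a share near the 3.9% of all genes tested. The median log2 fold change (KO over control) was -0.03 over the 54 genes and 0.001 over all genes tested, and 33 of the 54 (61.1%) lay below 0 against 49.8% of all genes. The 95% interval of the change lay within 1.5-fold in either direction for 43 of the 54 genes (79.6%, against 61.1% of all genes tested) and within 2-fold for 52.

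Pools with the same replicate number deviated together, although the labels do not say what this number marks. With the number as a block in the same test, 2 of the 54 genes fell, Creld2 and Sel1l, and none rose. Of all genes tested, 1.04% fell with the block. With the block, 11 of the 54 had an unadjusted p under 0.05, where 9.37% of all genes tested did. DESeq2 called 1 gene lower, Creld2, where it called 0.867% of its genes lower, and limma-voom called 0. In the authors' deposited table Creld2 alone of the 54 was lower at an adjusted p under 0.05, as were 0.597% of the genes with an adjusted p there. With library 2 of each group left out, 0 of the 54 genes passed the blocked test, where 94 of all genes tested fell. Creld2 and Sel1l still fell without both libraries 1, where 153 of all genes tested fell, or without both libraries 3, where 235 did. With both libraries of a number left out, the blocked fit has little left to estimate each gene's spread.

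**Figure D1:**
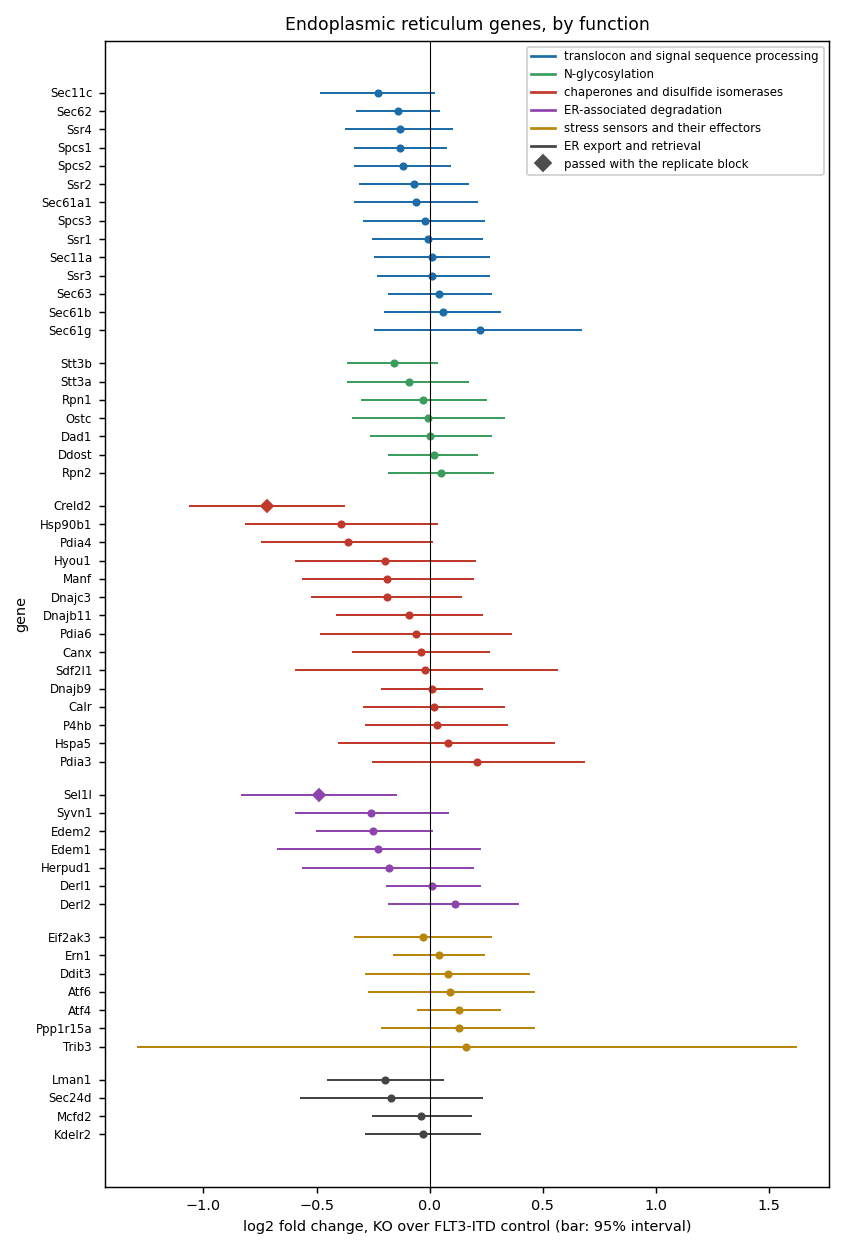
The log2 fold change (KO over FLT3-ITD control, x axis) of each of the 54 ER genes is shown with its 95% interval, grouped by function, from the fit without the replicate block. Diamonds mark Creld2 and Sel1l, which passed the adjusted threshold with the block; the other 52 intervals cross 0.

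Counting libraries rather than testing, 8 of the 54 genes were lower in every KO library than in every control library, a share of 14.8%, where 4.79% of all genes tested were. These were Sec62, Spcs1, Sec11c, Stt3b, Pdia4, Creld2, Edem2 and Sel1l. The reverse held for 0 of the 54, against 3.43% of all genes. The counts depended on which libraries were used: without both libraries 1, 13 genes were lower and 10 higher without overlap, and without control library 1 alone 8 were higher. With fewer libraries the groups separate more easily, and the share of all genes is not given for these sets. These counts therefore cannot be set against the shares above. Within pairs of equal number, 13 genes (24.1%) were lower in the KO in all 3 pairs, where 16.5% of all genes tested were. Another 4 (7.41%), Sec61g, Pdia3, Atf6 and Atf4, were higher in all 3 pairs, where 15.1% of all genes tested were.

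The translocon genes were close to level. SEC62 and SEC63 help post-translational entry through the channel formed by SEC61, the signal peptidase complex (SPCS1 to SPCS3, SEC11A, SEC11C) cuts the signal peptide, and the translocon-associated proteins SSR1 to SSR4 assist insertion. Of the 14 genes 0 passed the test with or without the block, the median log2 fold change was -0.04, and 3 were lower in the KO without overlap. Sec11c, a catalytic subunit of signal peptidase, measured 202, 173 and 186 CPM in control libraries 1, 2 and 3 and 172, 139 and 168 CPM in the KO libraries (log2 fold change -0.23, SE 0.11, edgeR adjusted p = 0.9995). Every KO library was below every control library, and the nearest were control library 2 and KO library 1. Sec62 measured 114, 125 and 117 CPM in the controls and 103, 111 and 110 CPM in the KO (-0.14, SE 0.08). Spcs1, a small signal peptidase subunit, measured 72.3, 66.6 and 67.8 CPM against 60.7, 61.9 and 66.4 CPM (-0.13, SE 0.08). The groups touched in neither gene, but the gaps were small beside the spread within groups. The remaining 11 genes had log2 fold changes from -0.13 for Ssr4 to 0.22 for Sec61g, and 13 of the 14 intervals lay within 1.5-fold. In FPKM, which divides reads by transcript length and so allows genes to be compared, the mean level over the 6 libraries ran from 2.96 FPKM (Sec61g) to 109 FPKM (Ssr3).

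The oligosaccharyltransferase genes differed little between the groups. This complex moves the preassembled glycan onto asparagines of the entering protein, with STT3A or STT3B as its catalytic subunit. All 7 genes had an interval within 1.5-fold, the median log2 fold change was -0.01, and 0 passed. Stt3b measured 228, 196 and 210 CPM in the controls and 193, 179 and 194 CPM in the KO (-0.16, SE 0.08), lower in every KO library. Stt3a measured 331, 270 and 259 CPM in the controls and 279, 248 and 280 CPM in the KO (-0.09, SE 0.11), and its groups overlapped. Rpn2, a structural subunit, measured 454, 372 and 377 CPM against 408, 406 and 430 CPM (0.05, SE 0.10). Control library 1 was the highest for 6 of these 7 genes.

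The chaperones and disulfide isomerases included the gene with the largest log2 fold change of the 54, Creld2. Their summed level was 7430 ± 1422 CPM (SD, n = 3) in the controls and 7132 ± 705 CPM (SD, n = 3) in the KO, and the median log2 fold change of the 15 genes was -0.06. With the replicate block 1 of the 15 fell, Creld2, and 0 rose. Creld2 (GRCm38, chr15:88819646-88826683, plus strand), an ER protein with disulfide isomerase activity that is induced by folding stress, measured 89.3, 65.4 and 66.1 CPM in the controls and 48.6, 41.0 and 44.6 CPM in the KO. The groups did not overlap, and the KO library was lower in 3 of 3 pairs. Its log2 fold change was -0.72 (SE 0.15, 95% interval -1.06 to -0.38, edgeR adjusted p = 0.228), and with the block it was -0.71 (SE 0.09, adjusted p = 0.0142), a level 1.63 times higher in the controls. In the authors' deposited table its log2 fold change was -0.72 (adjusted p = 0.0126).

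The next largest differences in this group did not pass. Hsp90b1 encodes GRP94, the HSP90 of the ER, and measured 1171, 789 and 770 CPM in the controls and 787, 635 and 666 CPM in the KO (-0.39, SE 0.18; edgeR adjusted p = 0.203 with the block). Control library 1 stood far above the other controls, and KO library 1 lay between control libraries 2 and 3. Pdia4, the disulfide isomerase ERp72, measured 473, 326 and 321 CPM in the controls and 314, 269 and 287 CPM in the KO (-0.36, SE 0.16; edgeR adjusted p = 0.26 with the block). Its groups did not overlap, and of the blocked fits run it passed only that without both libraries 3 (edgeR adjusted p = 0.0457). That fit called 471 genes of the whole table, against 180 with all libraries. Hspa5 encodes BiP, the HSP70 of the ER and the standard readout of the unfolded protein response. It measured 1743, 1390 and 1178 CPM in the controls and 1816, 1575 and 1157 CPM in the KO (0.08, SE 0.20, 95% interval -0.40 to 0.55). The groups overlapped fully, and libraries of equal number lay close together. Pdia3 (ERp57), which works with calnexin and calreticulin on glycoproteins, was picked out after its values were seen, as the gene of this group with the highest fold change. It measured 370, 342 and 251 CPM in the controls against 455, 373 and 289 CPM in the KO (0.21, SE 0.20; edgeR adjusted p = 0.409 with the block). It was higher in the KO in 3 of 3 pairs although the groups overlapped.

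**Figure D2:**
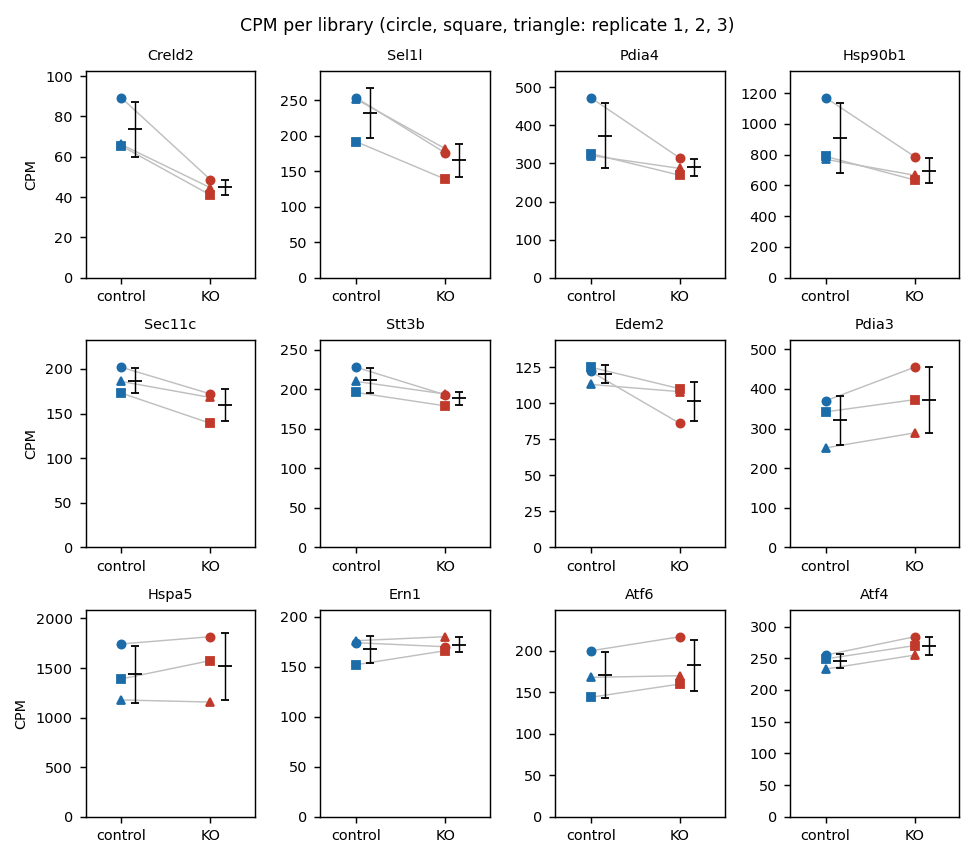
CPM of 12 ER genes (y axis from 0) is plotted for each control (blue) and KO (red) library, with grey lines joining libraries of equal number and black bars for the mean and SD of 3 libraries. Creld2, Sel1l, Pdia4, Sec11c, Stt3b and Edem2 have no KO library as high as any control, whereas in Hspa5 and Atf6 the groups overlap and both libraries numbered 1 are the highest.

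The other chaperones ranged from -0.20 for Hyou1, a BiP partner of the HSP110 family, to 0.03 for P4hb, the classical protein disulfide isomerase. The lectin chaperones Calr and Canx, which hold glycoproteins during folding, had log2 fold changes of 0.02 (SE 0.13) and -0.04 (SE 0.13). Calr was the most abundant of the 54 genes per transcript length, at a mean of 461 FPKM, followed by Hspa5 at 419 FPKM, P4hb at 241 FPKM, and then by Canx and Hsp90b1. Sdf2l1, a BiP cofactor, had -0.02 (SE 0.24), and Dnajb9, a co-chaperone that dampens IRE1, had 0.01 (SE 0.09).

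Many ER genes were highest in library 1, mostly that of the controls. Control library 1 was the highest of the 6 libraries for 35 of the 54 genes (64.8%), against 16.2% of all genes tested, and 1 of the libraries numbered 1 was the highest for 43 (79.6%, against 42.1%). For the chaperones and disulfide isomerases this was 15 of 15. The median of their log2 deviations from the gene mean was 0.37 in control library 1, -0.04 and -0.17 in control libraries 2 and 3, and 0.09, -0.10 and -0.18 in KO libraries 1, 2 and 3. Macrophage markers were highest in both libraries numbered 1, with medians of 2.15 in control library 1 and 1.77 in KO library 1 and values between -1.56 and -0.27 in the other 4. Erythroid markers summed to 52.1 and 37.0 CPM in control and KO library 1 and to 3.07 to 6.88 CPM in the others. Most of this was 1 globin transcript, Hbb-bs, at 36.4 and 27.4 CPM in control and KO library 1. Only 2 of the 7 markers passed the filter on low counts. The other of these, Klf1, had 1.84 and 1.07 CPM there and 0.895 to 1.79 CPM in the other libraries. The median of the stem and progenitor markers was lowest in the libraries numbered 1, at -0.32 and -0.39 against 0.12 to 0.27 in the other 4. Not every marker followed: a library numbered 1 was the highest for 2 of the 10, Ly6a and Cd48. The sort marker Ly6a was highest in library 1 of each group, at 121 CPM in the controls and 127 CPM in the KO. The part of macrophages, erythroid cells or progenitors in the ER gene values was not tested. Without control library 1, the median log2 fold change of the chaperones turned from -0.06 to 0.065.

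**Figure D3:**
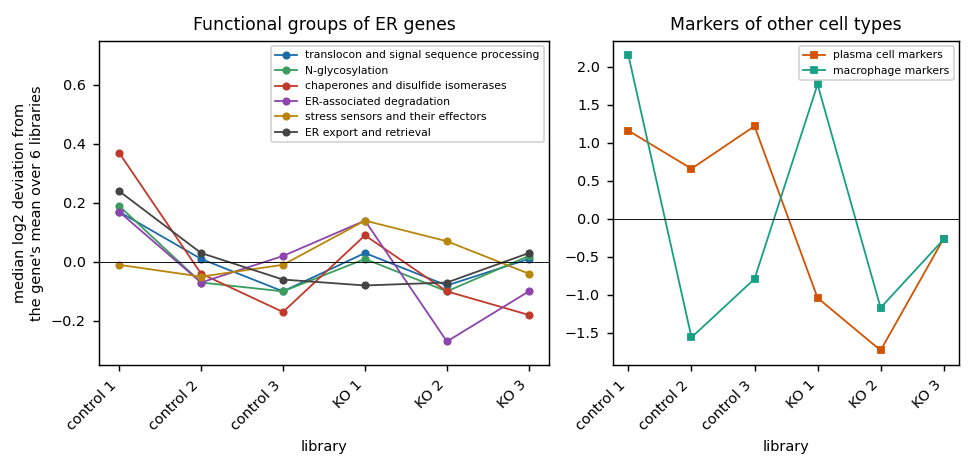
The median log2 deviation of each functional group of ER genes from the gene's mean over the 6 libraries is plotted by library (left), with the same measure for plasma cell and macrophage markers on a wider axis (right). The chaperones peak in control library 1, macrophage markers peak in the libraries numbered 1, and plasma cell markers are lower in all 3 KO libraries.

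The promoters of the ER genes were searched for the elements through which the unfolded protein response is known to act. Promoter sequence was not used to choose the genes. The list does include genes known for that response, such as Hspa5, so the share with a match is not independent of the choice. The ER stress response element (ERSE) has the letters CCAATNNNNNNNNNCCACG, where N is any base, and is the textbook binding site of NF-Y with ATF6 or XBP1. It was searched on both strands of the RefSeq promoter windows (GRCm38.p6, 250 bases before to 50 after each gene's start), which hold 43 of the 54 genes. A match was present in 8 of the 43 (18.6%), against 37 of 27025 genes with a window (0.137%). The elements are shown because they are the sequence these genes have in common, with the fixed letters in capitals and the spacer in lower case, 5' to 3' on the strand of the match.
Creld2: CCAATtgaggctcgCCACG
Hspa5: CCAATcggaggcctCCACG
Hsp90b1, farther from the start: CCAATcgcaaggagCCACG
Hsp90b1, nearer to the start: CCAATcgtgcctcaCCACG
Calr: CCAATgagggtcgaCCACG
Canx: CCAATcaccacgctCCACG
Pdia6: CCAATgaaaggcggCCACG
Dnajc3: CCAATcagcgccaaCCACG
Syvn1: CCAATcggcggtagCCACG
They ended between 25 bases (Syvn1) and 193 bases (the farther of the Hsp90b1 pair) before the start.

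The genes with this element did not all lie on the same side of 0. Their log2 fold changes ran from -0.72 (Creld2) to 0.08 (Hspa5), with a median of -0.12 and 6 of 8 below 0, and the 35 genes with a window but no match had a median of -0.01. Creld2 and Hspa5 show the spread. In both windows below, each covering the 250 bases before the RefSeq start, the capitals mark the ERSE, which in Creld2 lies on the opposite strand and therefore reads as its reverse complement.
Creld2, chr15:88819396-88819645, plus strand: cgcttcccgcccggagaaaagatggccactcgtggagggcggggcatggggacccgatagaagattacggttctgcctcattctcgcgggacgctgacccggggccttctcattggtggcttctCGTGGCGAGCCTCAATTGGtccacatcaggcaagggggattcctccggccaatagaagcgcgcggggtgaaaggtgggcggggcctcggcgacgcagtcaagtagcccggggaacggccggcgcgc
Hspa5, chr2:34771840-34772089, plus strand: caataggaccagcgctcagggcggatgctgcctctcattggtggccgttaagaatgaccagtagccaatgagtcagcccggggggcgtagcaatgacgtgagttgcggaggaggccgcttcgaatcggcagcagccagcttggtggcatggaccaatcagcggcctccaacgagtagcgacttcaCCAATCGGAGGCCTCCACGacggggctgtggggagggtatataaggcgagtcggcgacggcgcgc
The match ended 107 bases before the start in Creld2 and 46 bases before it in Hspa5. The related ERSE-II letters (ATTGGNCCACG) were found for Dnajb11 and Herpud1 (0.0444% of all genes with a window). The core of the XBP1 element (TGACGTGG) was found for Sec24d alone of the 43 (0.714% of all genes). Both share the letters CCACG with the ERSE, the XBP1 core on its other strand. The C/EBP-ATF element that ATF4 binds (TGATGNAA) was found for Herpud1 and Trib3 (4.51% of all genes). A match describes the letters and does not show binding.

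**Figure D4:**
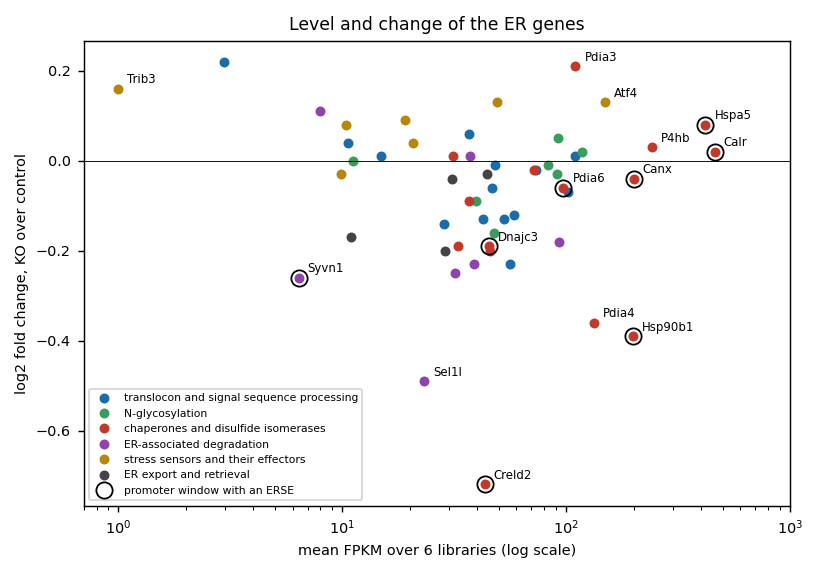
The log2 fold change (KO over control, y axis) of each ER gene is plotted against its mean FPKM over the 6 libraries (x axis, log scale), coloured by function, with rings around the 8 genes whose promoter window holds an ERSE. Ringed genes lie from Creld2 at -0.72 to Hspa5 at 0.08, and Calr and Hspa5, the most abundant, at 0.02 and 0.08.

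ER-associated degradation had the lowest median of the 6 functional groups, -0.23 over 7 genes, with 5 of 7 below 0. With the replicate block 1 of the 7 fell, Sel1l, and 0 rose. SEL1L holds the ubiquitin ligase SYVN1 (HRD1) in the membrane complex through which misfolded proteins leave the ER, and it is required to keep haematopoietic stem cells in the mouse. Sel1l (GRCm38, chr12:91806043-91849157, minus strand) measured 254, 192 and 252 CPM in the controls and 176, 139 and 182 CPM in the KO. Every KO library was below every control library. Its log2 fold change was -0.49 (SE 0.15, 95% interval -0.83 to -0.15, edgeR adjusted p = 0.711), and with the block -0.49 (SE 0.06, adjusted p = 0.0159), a level 1.40 times higher in the controls. DESeq2 gave an adjusted p of 0.292 for it, and the authors' deposited table gave one of 0.404.

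The ligase that SEL1L carries was lower by less. Syvn1 measured 34.1, 30.9 and 34.7 CPM in the controls and 33.6, 25.2 and 24.8 CPM in the KO (-0.26, SE 0.14), with KO library 1 among the controls. Edem2, a mannosidase that starts the glycan trimming which marks proteins for disposal, measured 122, 125 and 113 CPM in the controls and 85.9, 110 and 108 CPM in the KO (-0.25, SE 0.11), without overlap. Edem1 and Herpud1 were lower in 3 of 3 pairs, with log2 fold changes of -0.23 (SE 0.19) and -0.18 (SE 0.16). The derlins Derl1 and Derl2, which form part of the exit channel, had 0.01 (SE 0.09) and 0.11 (SE 0.12). The summed level of the 7 genes was 1190, 920 and 1012 CPM in the controls and 990, 801 and 886 CPM in the KO. These sums overlapped between the groups. The group's median moved to -0.035 without control library 1 and to -0.303 without KO library 1.

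None of the stress sensors or their effectors fell or rose, with or without the block (0 of 7, and 0 with an unadjusted p under 0.05 in edgeR in either fit). Their median log2 fold change was 0.09, and 6 of the 7 lay above 0. Ern1, which encodes IRE1, measured 174, 152 and 176 CPM in the controls and 170, 166 and 180.0 CPM in the KO (0.04, SE 0.08, 95% interval -0.16 to 0.24). Atf6 measured 200.0, 144 and 168 CPM in the controls and 217, 160.0 and 170 CPM in the KO (0.09, SE 0.16). Eif2ak3, which encodes PERK, measured 62.6, 47.9 and 53.3 CPM against 59.2, 49.3 and 51.6 CPM (-0.03, SE 0.13). All 3 sensors were thus expressed at overlapping levels in the groups, and Atf6 and Eif2ak3 were highest in the libraries numbered 1.

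The PERK arm's effectors lay slightly above 0. Atf4, the transcription factor whose translation PERK favours, measured 255, 249 and 233 CPM in the controls and 284, 270 and 255 CPM in the KO (0.13, SE 0.08, 95% interval -0.05 to 0.31), higher in 3 of 3 pairs with the groups meeting at 255 CPM. Ddit3, the pro-apoptotic factor CHOP, measured 14.5, 17.9 and 19.4 CPM in the controls and 17.3, 19.8 and 17.6 CPM in the KO (0.08, SE 0.15). Ppp1r15a (GADD34), which reverses PERK's block of translation, measured 123, 168 and 124 CPM against 157, 162 and 133 CPM (0.13, SE 0.14). Trib3, a late target of ATF4 and CHOP, was near the limit of detection at 0.759 to 3.96 CPM, and its interval of -1.29 to 1.62 was the widest of the 54. These values are mRNA levels; the splicing of Xbp1, the cleavage of ATF6 and the phosphorylation of PERK were not measured.

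The export and retrieval genes all lay below 0 and none passed (0 of 4, median -0.10). Lman1 and Mcfd2 encode the paired cargo receptor for glycoproteins leaving the ER. Lman1 measured 220, 182 and 188 CPM in the controls and 158, 166 and 192 CPM in the KO (-0.20, SE 0.11), with KO library 3 above the controls 2 and 3. Mcfd2 measured 79.5, 84.9 and 81.1 CPM against 71.7, 82.3 and 85.3 CPM (-0.04, SE 0.09). Sec24d, a cargo-binding coat protein of COPII vesicles, measured 54.6, 43.4 and 35.4 CPM in the controls and 44.2, 38.6 and 36.0 CPM in the KO (-0.17, SE 0.17). Kdelr2, a receptor that returns escaped chaperones to the ER, had -0.03 (SE 0.11). All 4 intervals lay within 1.5-fold.

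The wider pathway was followed in 104 other genes, from lists of the same 6 functions, of which 100 were tested. Without the block 0 fell and 0 rose in edgeR (9 of the 100 with an unadjusted p under 0.05, beside 3.9% of all genes tested). DESeq2 called 2 of them lower, Derl3 and Creb3l2, beside 0.867% of its genes, and limma-voom called 0. With the block 3 fell, Derl3, Txndc5 and Creb3l2, beside 1.04% of all genes tested, and 0 rose. The median log2 fold change was -0.05. Without overlap, 9 of the 100 were lower and 3 higher in the KO, where 4.79% and 3.43% of all genes tested were. The 3 higher, a share near that of all genes, were Atf3, Cebpb and Sesn2 of the stress response list. They were named after their values were seen. Of the 11 other targeting genes, 12 glycosylation genes and 22 export genes tested, 0 passed in either fit.

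Derl3 (GRCm38, chr10:75893413-75895941, plus strand), a derlin found mainly in secretory cells, measured 22.2, 16.3 and 22.4 CPM in the controls and 5.81, 4.35 and 7.70 CPM in the KO. With the block its log2 fold change was -1.78 (SE 0.15, edgeR adjusted p = 0.00302), a level 3.43 times higher in the controls, and without the block it was -1.77 (adjusted p = 0.0678). Derl3 also passed in DESeq2 (no block, adjusted p = 2.17e-07) and in the authors' deposited table (adjusted p = 2.76e-07). An ERSE was present in 2 of the 89 other pathway genes with a promoter window (2.25%, against 0.137% of all genes), Derl3 and Ero1lb. Ero1lb (Ero1b) had a log2 fold change of 0.13 (SE 0.24). The Derl3 match lies on the opposite strand, as do those of Creld2, Calr, Ero1lb and the nearer one of Hsp90b1. The 250 bases before the Derl3 start are printed to set the element beside that of Creld2, with the match in capitals.
Derl3, chr10:75893148-75893397, plus strand: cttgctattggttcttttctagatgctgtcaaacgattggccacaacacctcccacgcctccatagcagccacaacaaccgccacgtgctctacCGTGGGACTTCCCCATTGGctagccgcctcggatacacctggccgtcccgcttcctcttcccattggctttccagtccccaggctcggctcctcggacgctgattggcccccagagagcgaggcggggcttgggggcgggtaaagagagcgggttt
Derl1 and Derl2 did not pass, and the difference between the derlins was not tested.

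Creb3l2, an ER-bound transcription factor of secretory cells, measured 30.7, 27.6 and 31.1 CPM in the controls and 18.7, 18.7 and 19.7 CPM in the KO. Its log2 fold change was -0.65 with the block (SE 0.10, edgeR adjusted p = 0.0368, and 0.137 without). DESeq2 gave an adjusted p of 0.0163 for Creb3l2, and the authors' deposited table gave one of 0.0217. Txndc5, a disulfide isomerase, measured 370, 229 and 351 CPM in the controls and 225, 173 and 256 CPM in the KO (-0.53 with the block, SE 0.08, edgeR adjusted p = 0.0363; 0.9995 without). Its groups overlapped, since control library 2 lay below KO library 3. Xbp1, the factor that IRE1 splices and that plasma cells require, measured 385, 294 and 331 CPM in the controls and 220.0, 187 and 267 CPM in the KO, without overlap (-0.59 with the block, SE 0.10, edgeR adjusted p = 0.0503; 0.497 without). Leaving out both libraries 2 left Derl3 alone of these past the threshold with the block. Creb3l2 also lost its call without both libraries 1, and Xbp1 passed without both libraries 3 (edgeR adjusted p = 0.000606). That last fit called 471 genes of the whole table, against 180 with all libraries. With both libraries of a number left out, little is left in the blocked fit to estimate each gene's spread. DESeq2 called neither Txndc5 (adjusted p = 0.681) nor Xbp1 (adjusted p = 0.072).

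These 4 genes, Creld2 and Sel1l were lower in the group with fewer plasma cell transcripts. All 11 plasma cell markers were lower in the KO, with a median log2 fold change of -1.87. In edgeR 2 of 11 fell without the block, where 0.144% of all genes tested fell, and 10 of 11 with it, where 1.04% did. The marker sums were lowest in library 2 and highest in library 1 or 3 of each group. The part of plasma cell RNA in the values of the ER genes was not tested.

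**Figure D5:**
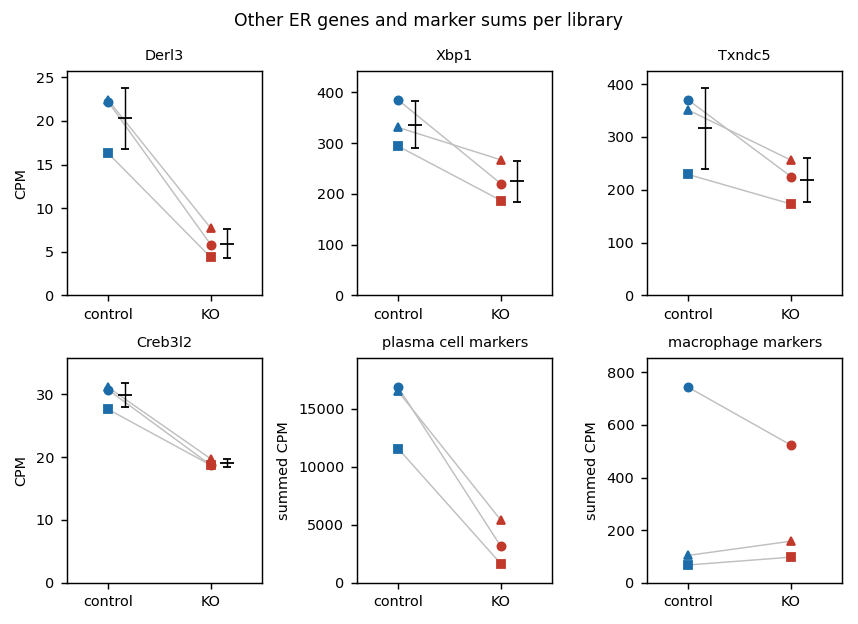
CPM per library of Derl3, Xbp1, Txndc5 and Creb3l2 (mean and SD in black, n = 3) is shown beside the summed CPM of plasma cell and macrophage markers, with controls in blue, KO in red and grey lines joining equal numbers. The 4 genes and the plasma cell sum are lower in the KO in all 3 pairs, whereas the macrophage sum follows the libraries numbered 1.

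Finally, the genes were searched for the sequence that the deleted microRNA pairs with. The mature miR-155-5p (RefSeq, GRCm38.p6, chr16:84714143-84714165, plus strand) is shown with its seed, bases 2 to 8, in capitals.
miR-155-5p: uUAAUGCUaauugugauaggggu
In the longest annotated 3' UTR of each gene (GENCODE M21, GRCm38), the full match AGCATTAA occurred in 0 of the 54 genes, against 3.37% of 11723 tested genes with a 3' UTR. The match AGCATTA, with or without the last A, occurred in 6 of the 54 (11.1%, against 9.37%): Ern1, Sel1l, Dnajc3, Atf6, Rpn1 and Stt3a. The sites of a called gene and of both sensors are shown with the match in capitals.
Sel1l, chr12:91807355-91807361, minus strand: tcgggagttttAGCATTAggatttagatt
Ern1, chr11:106395222-106395228, minus strand: ccactcacctaAGCATTAccagccagcta
Atf6, chr1:170705403-170705409, minus strand: ggctagctttaAGCATTAcagacttagta
The 6 genes had log2 fold changes from -0.49 (Sel1l) to 0.09 (Atf6), and 0 of them rose.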

How the data were processed

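RNA sequencing of 6 libraries of sorted bone marrow cells was analysed, 3 FLT3-ITD and 3 FLT3-ITD miR-155-/-, each a pool of 3 mice. The authors deposited raw gene counts, whole numbers with no normalization per the file headers and the values. The authors also deposited FPKM values, whose ratio to the counts varied between libraries by 0.0%, and these were used only to compare levels between genes. The deposited table holds the authors' own log2 fold changes and adjusted p-values as well. The submitters' processing notes name mm10 as the build, with Novoalign (2.08.01) and DESeq2 (1.10.1). How reads were counted, on which annotation and whether by strand is not given in the sources used here, so overlapping and antisense genes are uncertain.

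Groups came from the labels. Counts of the whole table were tested with edgeR 4.0.16 (quasi-likelihood F test, TMM, filterByExpr with a minimum count of 10 and a minimum total of 15, 13217 genes), with Benjamini-Hochberg adjustment and a threshold of 0.05. Intervals are 95% intervals of the fitted change. The labels do not say what the replicate numbers of the titles mark. They were treated as pairs because deviations from the group means correlated at 0.596, 0.573 and 0.247 for equal numbers. For unequal numbers these correlations ran from -0.547 to 0.134. The pairing was thus chosen from these same data, and the fit with this block is given where it changes a call. DESeq2 1.42.0, limma-voom (limma 3.58.1), other scalings and filters, library sizes without immunoglobulin genes and leaving out libraries were alternatives. Tested on simulated data of 13042 genes, the fit without the block recovered 20% of 1.5-fold and 74% of 2-fold changes in this comparison, and the blocked fit 14% and 74%. The simulated counts held no effect of the replicate number, so they cannot show what the blocked fit recovers in the real data.

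The ER genes, the other lists and the tests were chosen with earlier results of these data known. Values per library are given for genes past the threshold in either fit, for the up to 3 genes with the smallest unadjusted p of each function, and for Hspa5, Ern1, Atf6, Eif2ak3, Atf4, Ddit3 and Xbp1; Pdia3 and any other gene given per library were picked after their values were seen. Coordinates and 3' UTRs are from GENCODE M21 (GRCm38, the assembly of mm10), promoters and the microRNA from RefSeq (GRCm38.p6).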

Additional observations from a re-analysis of the deposited data

How the results depend on the processing

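The number of ER genes that fell was 0 in edgeR without the replicate block and also 0 with DESeq2's size factors, without a low-count filter, with a stricter one, with library sizes that leave out immunoglobulin genes and with limma-voom. With the replicate block it was 2, DESeq2 gave 1, and none rose under any of these. Over fits that left out libraries it lay between 0 and 3. Genes past the threshold in the whole table numbered 21, and 180 with the replicate block, 97 without a low-count filter, 131 with DESeq2 and 0 to 471 when libraries were left out (0 without control library 1 or 3). ER genes lower in every KO library numbered 8 to 13 when libraries were left out, and those higher in every KO library 0 to 10, and 1 with library sizes without immunoglobulin genes. The share of all genes is not given beside these counts, and groups of fewer libraries separate more easily. When libraries were left out, the median log2 fold change lay between -0.177 and 0.065 for the chaperones and between -0.303 and -0.035 for degradation genes. Of 494 values for 26 genes under 19 alternatives, 455 kept direction and side of the threshold, 21 moved past it and 18 changed sign, all 18 in fits without 1 or 2 libraries. Those 18 belong to 9 genes near 0, with ranges of -0.02 to 0.16 (Rpn2), -0.19 to 0.03 (Stt3a), -0.07 to 0.24 (Hspa5), -0.02 to 0.08 (Ern1), -0.04 to 0.23 (Atf6), -0.12 to 0.08 (Eif2ak3), -0.03 to 0.20 (Ddit3), -0.09 to 0.04 (Mcfd2) and -0.30 to 0.01 (Sec24d). The pairing by replicate number changed no call of these genes other than Creld2, Sel1l, Derl3, Txndc5 and Creb3l2. Leaving out libraries by number was added after seeing the data. Changes of 1.5-fold were mostly not recovered in the simulation with 3 pools per group, which held no effect of the replicate number. The cause of the differences between settings was not tested.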
